A study of Homo sapiens with 2 samples.

Results

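Chaperones are proteins that help other proteins fold, and cells use a few of them in very large amounts. The transcripts described here come from 8 genes for such helpers: HSPA8, HSP90AB1 and HSP90AA1 of the cytosol, PPIA (cyclophilin A), HSPD1, HSPE1 and HSPA9 of the mitochondria, and HSPA5 of the endoplasmic reticulum. Counted for them were the poly(A) sites, the places where a transcript ends and its tail begins, that lay within the genomic interval and on the strand of each gene and occurred in the data of both libraries. This gave 10 sites in 7 of the 8 genes, out of 8890 sites found in both libraries. HSPE1 had no site. The intervals follow hg19, and the gene names rest on that reading of the site positions.

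The samples were HCT116 cells, a human colon cancer line, in which an mAID degron tag had been placed on PABPC1 and PABPC4, the tail-binding proteins of the cytoplasm, at their own genes. A transgene carried by a Sleeping Beauty transposon in several copies supplied either PABP1212, a PABPC1 whose RNA-binding domains RRM1 and RRM2 are present in duplicate, or PABPC1 itself. The lines were polyclonal. Replacement took 13 days of treatment with doxycycline at 1 μg/mL, which switches the transgene on, and IAA, an auxin that removes the tagged proteins, at 0.5 mM. Cells were then sorted by transgene expression into 4 gates of 25% of the cells each, called here the lowest, second-lowest, second-highest and highest level. Uninduced cells, which carried the same tags and transgene but received neither agent and were not sorted, were read beside them in each library.

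Poly(A)-binding proteins coat the tails of cytoplasmic mRNAs, and both the length of the tail and its coat bear on how long an mRNA lasts and how well it is translated. Cytosolic Hsp70 and Hsp90 chaperones act one after the other on many client proteins. HSPD1 and HSPE1 together form the folding chamber of the mitochondrial matrix, while HSPA9 is the Hsp70 of that matrix and HSPA5, also called BiP, is the Hsp70 of the endoplasmic reticulum and a classical target of the unfolded protein response. PPIA speeds the turning of proline bonds.

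Since a tail starts at the 3′ end of its transcript, annotated ends of these mRNAs are shown, which may differ from the ends used in these cells. The following are the last 30 bases of GENCODE 29 transcripts (protein-coding, basic, best support level), for each gene the one with the lowest transcript identifier, 5′ to 3′ in the direction of transcription, with the polyadenylation signal AATAAA in capitals where it occurs.
HSPA8, chromosome 11: tgtcttaAATAAAactatttaaaattggca
HSP90AB1, chromosome 6: gcaaAATAAAgaatatgccgtttttataca
HSP90AA1, chromosome 14: taaatacagtcacttaattccttggcctta
HSPD1, chromosome 2: gtgtAATAAAaatttgtttaaagttaataa
HSPA5, chromosome 9: gttactgaatattaaaaagatagacttcaa
HSPA9, chromosome 5: ttttttaAATAAAtacagaaagcatcttga
PPIA, chromosome 7: gattatgaAATAAAaactaaataacaattg
The ends shown for HSPA8, HSP90AB1, HSPD1, HSPA9 and PPIA held the signal, and those of HSP90AA1 and HSPA5 did not hold these letters in this window. Variants of the signal were not searched for. These genes have 12 such transcripts in all, of which 7 held it. For HSPA8 it was 1 of 3, the other 2 ending a few bases further on. Of all 30016 transcripts of this kind in the annotation, 14303 (47.7%) held it. The annotation is of hg38, so these ends could not be tied to the site positions in the data.

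Of the 10 sites, 1 each belonged to HSPA8 (chromosome 11, position 122928197, minus strand), HSP90AA1 (chromosome 14, 102547385, minus), HSPD1 (chromosome 2, 198351308, minus), HSPA5 (chromosome 9, 127998469, minus) and PPIA (chromosome 7, 44841241, plus). HSP90AB1 had a main site at 44221640 and an upstream site at 44221600 on the plus strand of chromosome 6, 40 nt apart. HSPA9 had its main site at 137890982 on the minus strand of chromosome 5, and 2 further sites 456 and 535 nt upstream of it. These 2 had 135 and 210 reads in all and fell under the minimum of 10 reads in every subsample, so that 8 sites entered the tests. Processed pseudogenes, near-identical copies elsewhere in the genome, exist for several of these genes, and whether reads were shared with them was not tested.

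Each library held 5 barcoded subsamples, and reads per subsample ranged from 65862 to 630986, of which 928 to 10992 were chaperone reads. The 3 barcodes of a sorted level were merged in the data, so a level is 1 observation, the transgene cannot be told apart from its library, and the level cannot be told apart from its set of barcodes. A difference between sorted and uninduced cells, called a replacement change below, also carries the difference in doxycycline, IAA, sorting and barcodes. Intervals are 95% and cover counting error only, and p-values measure the scatter of the levels around a straight line, which may be technical.

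In most of the 7 genes the lowest level of a transgene had the longest tails, and at the 2 upper levels of PABP1212 all 7 genes had shorter median tails than uninduced cells. The plot of median tail lengths shows this for each gene.

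HSPA8 encodes the constitutive cytosolic Hsp70. With PABP1212 its median tail was 93 nt in uninduced cells, 120 nt at the lowest level, 99 nt at the second-lowest, 89.5 nt at the second-highest and 88 nt at the highest level. With PABPC1 the medians were 91, 113, 103, 102 and 109 nt in the same order. The interval at the lowest level of PABP1212 (114 to 130 nt) lay above those of the other 4 PABP1212 subsamples, the highest of which ended at 106 nt. The intervals of the second-highest level (85 to 95 nt), the highest level (85 to 93 nt) and uninduced cells (86 to 98 nt) overlapped. With PABPC1 the intervals of all 4 levels overlapped, from 94 to 109 nt at the second-highest level to 97 to 128 nt at the lowest.

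HSP90AB1 and HSP90AA1 encode the constitutive and the stress-inducible cytosolic Hsp90. HSP90AB1 tails in the PABP1212 library had medians of 97 nt in uninduced cells and 105, 89, 80 and 79 nt as the level rose. In the PABPC1 library they had medians of 94.5 nt in uninduced cells and 116.5, 104, 102 and 108 nt over the same 4 levels. At the highest level the interval with PABP1212 (76 to 82 nt) lay below that with PABPC1 (97 to 116 nt), while in uninduced cells the intervals were 93 to 101 nt in the PABP1212 library and 82 to 103 nt in the PABPC1 library.

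For HSP90AA1 the PABP1212 medians were 100 nt in uninduced cells and 119.5, 101, 88 and 87 nt over the levels. The PABPC1 medians were 108.5 nt in uninduced cells and 128, 97, 107 and 108 nt over the levels. The low point of HSP90AA1 with PABPC1 was the second-lowest level (90 to 107 nt), which in the other 6 genes was not the shortest of the 4 sorted levels in that library.

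PPIA encodes a prolyl isomerase that is among the most abundant cytosolic proteins. Its PABP1212 medians were 94 nt in uninduced cells and 114.5, 103, 88 and 85 nt over the levels, lower at each step. Its PABPC1 medians were 96 nt in uninduced cells and 110.5, 106, 102 and 97 nt over the levels. With PABPC1 the highest level (93 to 104 nt) and uninduced cells (91 to 103 nt) overlapped almost fully, and with PABP1212 the highest level (82 to 88 nt) lay below uninduced cells (90 to 99 nt).

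HSPD1, the mitochondrial chaperonin, spanned the widest range of the 7 genes with PABP1212. With PABP1212 its medians were 91 nt in uninduced cells, 132 nt at the lowest level, 96.5 nt at the second-lowest, 70 nt at the second-highest and 77 nt at the highest level. With PABPC1 they were 85, 108, 108, 98 and 99.5 nt. The PABP1212 intervals at the second-highest level (65 to 76 nt) and the lowest level (122 to 160 nt) lay far apart, and the PABPC1 intervals of the 4 levels overlapped one another. HSPD1 had the shortest median of the 7 genes in the uninduced cells of both libraries.

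HSPA9, the mitochondrial Hsp70, rested on 24 to 283 reads per subsample. Its medians over all sites were 124 nt in uninduced cells and 113, 109, 87 and 102 nt over the levels with PABP1212. With PABPC1 they were 87.5 nt in uninduced cells and 135, 122.5, 110.5 and 96 nt over the levels. At the main site alone the uninduced medians were 104 nt in the PABP1212 library and 118 nt in the PABPC1 library, so their order turned round with the choice of sites. The PABPC1 uninduced interval over all sites, 50 to 123 nt, covered most of the other values.

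HSPA5 had long tails in uninduced cells. In the PABP1212 library its median was 124 nt in uninduced cells, 138 nt at the lowest level, 113 nt at the second-lowest, 106 nt at the second-highest and 97 nt at the highest level. Its PABPC1 medians were 127, 128.5, 114, 112.5 and 110 nt. The uninduced median exceeded that of 96.7% of the 914 sites tested in the PABP1212 library and of 92.6% in the PABPC1 library. The PABP1212 interval at the highest level (92 to 103 nt) lay below the uninduced one (109 to 138 nt), and the PABPC1 intervals at the highest level (85 to 125 nt) and in uninduced cells (113 to 141 nt, 35 reads) overlapped.

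**Figure D1:**
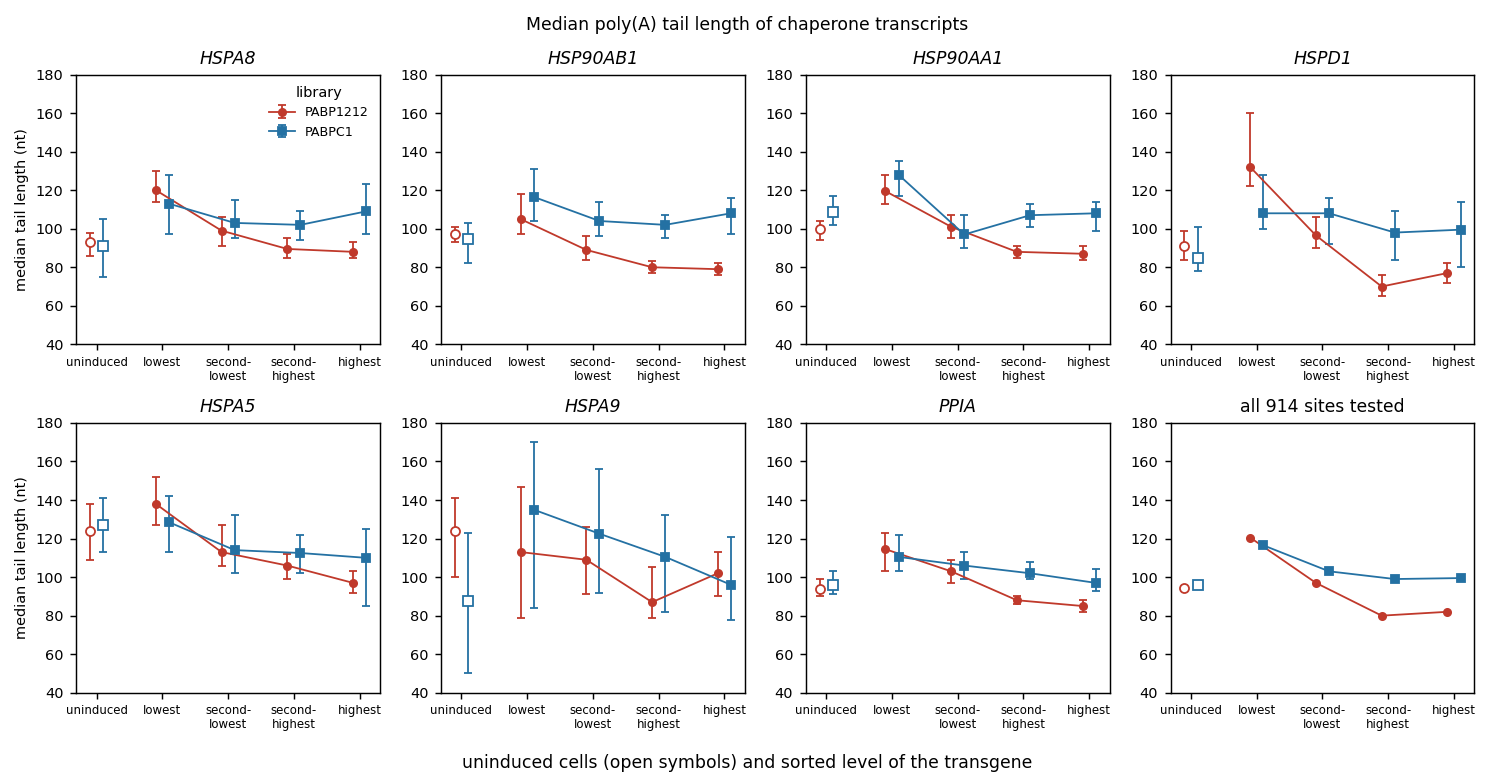
Median poly(A) tail length in nt of the reads of each chaperone gene, and the median of site medians over all 914 sites tested, in uninduced cells (open symbols) and at the 4 sorted levels of PABP1212 (red circles) and PABPC1 (blue squares); bars are 95% order-statistic intervals, and each point is 1 subsample. At the highest level PABP1212 medians run from 77 nt in HSPD1 to 102 nt in HSPA9, against 96 nt in HSPA9 to 110 nt in HSPA5 with PABPC1.

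Set against uninduced cells of the same library, all 8 chaperone sites had longer median tails at the lowest PABP1212 level, as had 91% of the 914 sites. The median change of the 8 sites was 20 nt, from 8 nt at the main HSP90AB1 site to 41 nt at HSPD1, and that of all sites was 25.75 nt. At the second-lowest level 6 were longer (53.3% of all sites) and 2 shorter (45%), the 2 being the main HSP90AB1 site and HSPA5. The median change there was 5.75 nt over the 8 sites and 1 nt over all sites. All 8 were shorter at the second-highest level, as were 86.7% of all sites, by a median of -9.5 nt against -15 nt over all sites. At the highest level all 8 were again shorter (83.8% of all sites), with medians of -11 nt for the chaperones and -13.25 nt for all sites.

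The same counts with PABPC1 were 8 of 8 longer at the lowest level (82.1% of all sites), with a median change of 20.75 nt against 20 nt over all sites. At the second-lowest level 6 were longer (64.4% of all sites) and 2 shorter (34.4%). At the second-highest level 5 were longer (51% of all sites) and 3 shorter (47%), and at the highest level 5 were again longer (55.6%) and 3 shorter (43.3%). From the second-lowest to the highest level the median changes of the 8 sites were 11, 6.5 and 6.25 nt, against 7, 1 and 3 nt over all sites. Most chaperone sites changed in the same direction as most of all sites at each level of either transgene. No test was made of the differences from all sites because each level is 1 observation.

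HSPA5 had the lowest change of the 8 sites at the lowest level of PABPC1 and at the highest level of PABP1212. At the lowest level its change was 14 nt with PABP1212, where 24.4% of all sites had a lower one, and 1.5 nt with PABPC1, where 18.9% had a lower one. At the highest level it was -27 nt with PABP1212 and -17 nt with PABPC1, and 11.2% and 15.3% of all sites had lower changes. The upstream HSP90AB1 site moved most with PABPC1, by 61 nt at the lowest level, but its uninduced median of 71 nt rested on 28 reads. The main site of the same gene, with 254 uninduced reads, moved by 17 nt.

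The shares of short and of long tails both differed between levels, as their plot shows. The share of reads with tails of 150 nt or more was highest at the lowest level in 7 of 7 genes with PABP1212, and likewise at 8 of the 8 chaperone sites and at 90.3% of all sites. For HSPD1 it was 18% in uninduced cells (13.9 to 22.6%, exact Clopper-Pearson interval) and 45% (36.9 to 53.3%), 27.4%, 15.9% and 18.5% from the lowest to the highest level of PABP1212. For HSPA8 it was 15.8% in uninduced cells and 36.4%, 25.3%, 23% and 20.5% over the same levels. With PABPC1 the HSPA8 shares were 18.8% in uninduced cells and 31.4%, 27.9%, 21.2% and 29.1% over the levels. Over all 914 sites the median share with PABP1212 was 17.7% in uninduced cells and 37.9%, 25.9%, 18.8% and 18.1% over the levels, and with PABPC1 it was 28.6% at the lowest level.

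Tails under 30 nt made up larger shares at the 2 upper levels of PABP1212 than in uninduced cells in all 7 genes, and likewise at 7 of the 8 chaperone sites and at 91.4% of all sites. The median share over all 914 sites was 13.7% at the second-highest and 12.2% at the highest level, against 5.21% in uninduced cells. HSPD1 reads held 15.7% of them (13.3 to 18.3%) at the second-highest and 14.8% at the highest level, against 4.95% (2.86 to 7.92%) in uninduced cells. PPIA reads held 7.24% and 7.79% at the same levels, against 2.19% (1.34 to 3.36%) in uninduced cells. At the highest level of PABPC1 the PPIA share was 3.32% (1.78 to 5.62%), against 2.17% (0.876 to 4.41%) in uninduced cells, and these intervals overlapped. HSP90AB1 held 12.5% of such reads at the highest level of PABP1212, against 6.79% in uninduced cells, and 4.92% at the highest level of PABPC1, against 6.74% in uninduced cells. For HSPA8, HSPA5 and HSPA9 the PABP1212 intervals at the highest level and in uninduced cells overlapped, those of HSPA8 being 9.66 to 13% and 8.26 to 13.1%.

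The spread of tails within a gene differed too. The interquartile range of PPIA tails was 62.5 nt in uninduced cells of the PABP1212 library and 103.25, 92, 74 and 72 nt over the levels. With PABPC1 it was 62.5 nt in uninduced cells and 68.75, 64.5, 70.25 and 64.5 nt over the levels. The median interquartile range over all 914 sites was 72 nt in uninduced cells and 110.5 nt at the lowest level with PABP1212, against 69.5 and 74 nt with PABPC1.

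**Figure D2:**
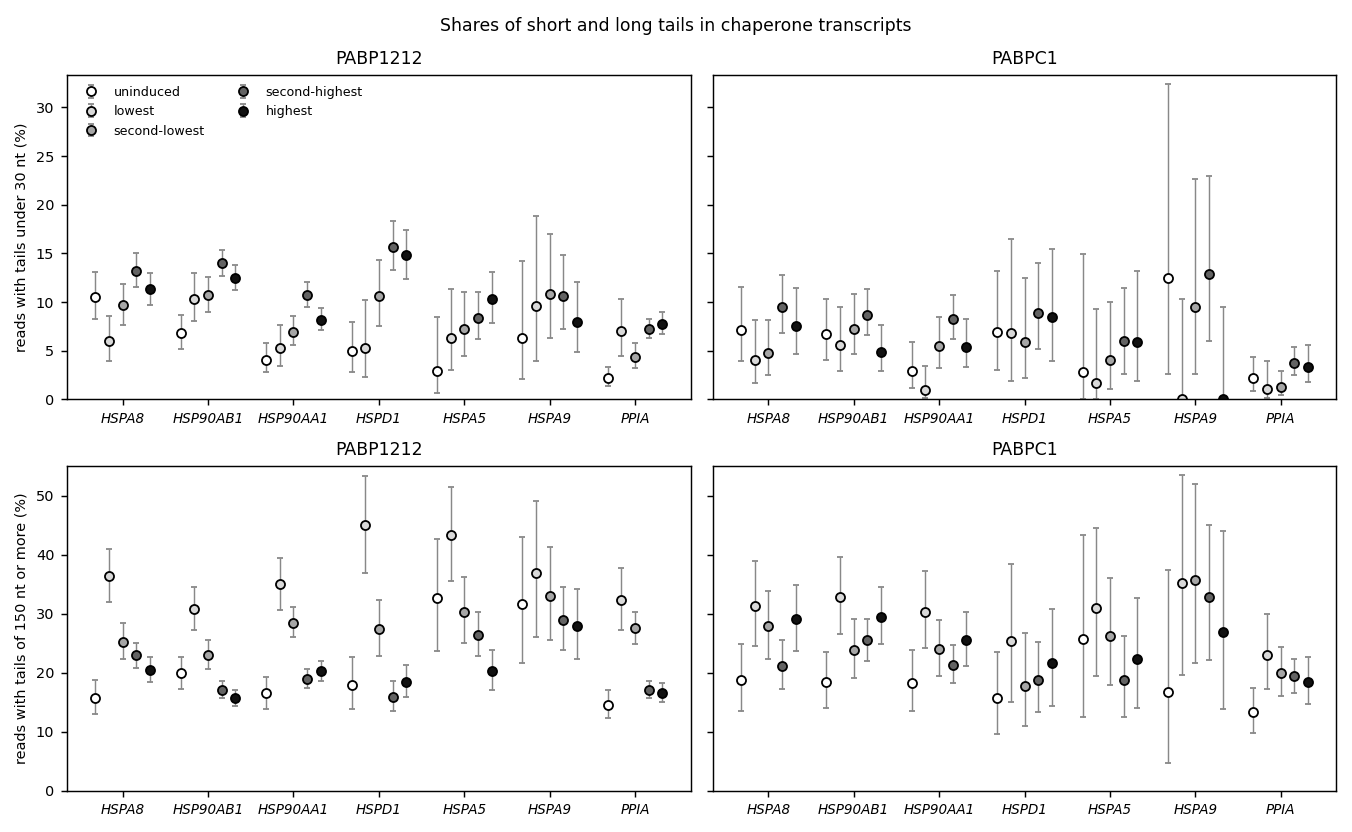
Percent of reads with tails under 30 nt (top) and of 150 nt or more (bottom) for each chaperone gene, in the PABP1212 library (left) and the PABPC1 library (right), with uninduced cells in white and darker points for higher sorted levels; bars are exact 95% Clopper-Pearson intervals. HSPD1 with PABP1212 goes to 45% long tails at the lowest level and 15.7% short tails at the second-highest level.

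Trends of the tail over the 4 levels were tested with limma across all 914 sites, and a trend is the change of the mean log2(tail + 1) per level. With PABP1212, 5 of the 8 chaperone sites fell with rising level at an adjusted p under 0.05, and 15.2% of all sites did so (139 of 914, none rising). That share was itself unstable, since leaving out 1 subsample moved it to between 11 of 914 sites (without the lowest PABP1212 level) and 665 of 914 (without the highest PABP1212 level). The 5 chaperone sites were HSPD1 (-0.19 ± 0.06 log2 per level, SE, limma adjusted p = 0.0303), HSPA5 (-0.15 ± 0.04, adjusted p = 0.0312), HSPA8 (-0.11 ± 0.03, adjusted p = 0.0358), PPIA (-0.10 ± 0.03, adjusted p = 0.0307) and the main HSP90AB1 site (-0.09 ± 0.03, adjusted p = 0.0297). HSP90AA1 had a trend of like size that did not pass (-0.10 ± 0.04, limma adjusted p = 0.078), nor did the upstream HSP90AB1 site (-0.04 ± 0.09, adjusted p = 0.737) and HSPA9 (0.00 ± 0.08, adjusted p = 0.978). The estimates of these last sites depended on tails of exactly 0 nt. Such tails were 2 of 44 HSPA9 reads (main site) and 5 of 48 upstream HSP90AB1 reads at the lowest PABP1212 level. At the highest level they were 0 of 165 and 7 of 271. Without them the HSPA9 trend lay below 0 and the upstream HSP90AB1 trend lay further below 0, and neither passed. Main-site medians of HSPA9 were 120.5, 115.5, 102 and 101 nt over the levels. The median trend was -0.10 log2 per level over the 8 sites and -0.14 over all sites. Of all sites, 19.3% had a lower trend than HSPD1, 44.1% than HSPA5 and 67.3% than HSPA8. For PPIA it was 71.9% and for the main HSP90AB1 site 76.3%. Reads served as weights, and whether the share of sites called followed their read numbers was not tested.

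These calls depended on single subsamples and on the weighting. Without the lowest or the second-lowest PABP1212 level, 0 of the 8 sites passed, and 11 and 13 of all 914 sites did. Without the highest PABPC1 level, which leaves the PABP1212 estimates as they were, 0 of the 8 passed (adjusted p of 0.0721 to 0.0859 for the 5 sites by limma), and 71 of all sites did. Without the lowest PABPC1 level 2 of the 8 passed, and 109 of all 914 sites did. HSPA5 was also lost without the second-lowest or second-highest PABPC1 level. With no weights 1 of the 8 sites passed, against 231 of all 914. With the PABP1212 library fitted alone 1 of the 8 passed, against 85 of all 914. Once the median over all sites was taken from each subsample, 0 of the 8 passed. The trends left were then 0.035 at HSPA8, 0.023 at PPIA, 0.044 at the main HSP90AB1 site, -0.063 at HSPD1 and -0.005 at HSPA5, in log2 per level, and their limma adjusted p ran from 0.275 to 0.976, so a trend apart from that shared by all sites was not shown at any of the 5.

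With PABPC1 no chaperone site passed (limma, 0 of 8 and 0 of 914 at adjusted p under 0.05, and 0 of 8 and 15 of 914 at an unadjusted p under 0.05). All 8 estimates were below 0, from -0.21 ± 0.16 log2 per level at HSPA9 to -0.01 ± 0.12 at HSPD1, with a median of -0.07 against -0.08 over all sites. The difference between the transgenes, PABP1212 minus PABPC1, passed at none of the 8 sites (0 of 8 and 2 of 914 at an unadjusted p under 0.05). The difference was -0.18 ± 0.13 at HSPD1 and -0.03 ± 0.06 at PPIA, with an adjusted p of 0.996 at each by limma. A fall in one library and none called in the other was therefore not shown to differ between the transgenes. The replacement change of the mean tail over all 4 levels passed at no chaperone site with either transgene (limma, 0 of 914 sites each, and at an unadjusted p under 0.05 34 sites with PABP1212, 1 of them a chaperone, and 1 site with PABPC1, 0 of them chaperones).

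**Figure D3:**
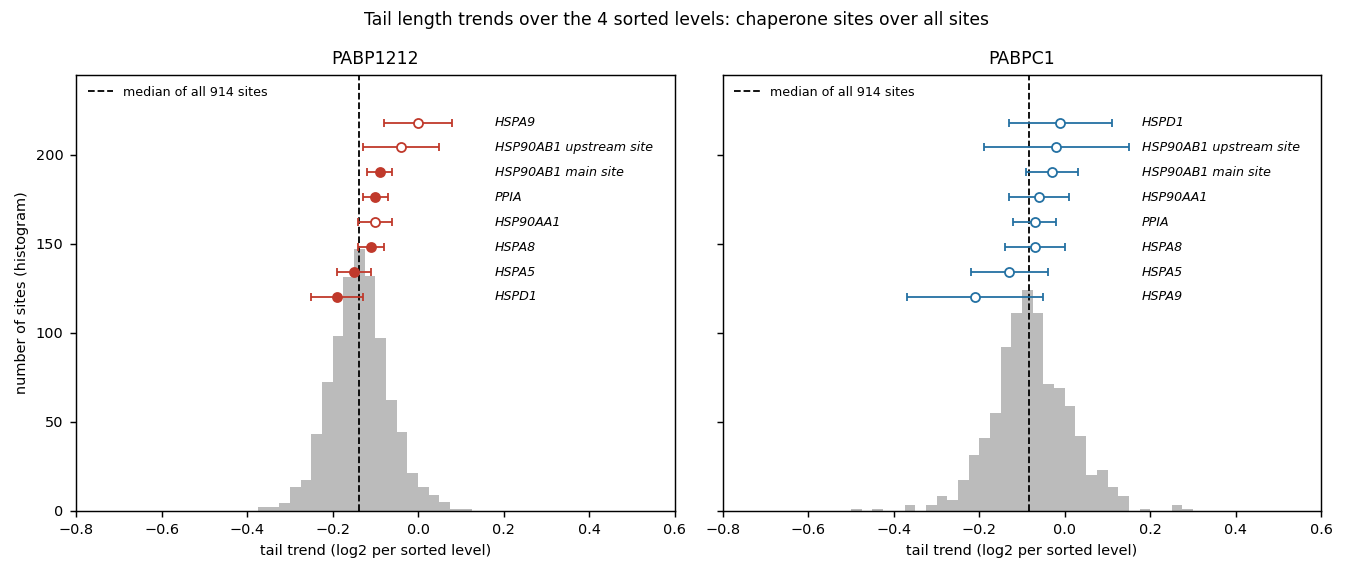
Trend of the tail in log2 per sorted level at the 8 chaperone sites (points with SE, filled where the limma adjusted p was under 0.05) above a histogram of the trends of all 914 sites, for PABP1212 (left) and PABPC1 (right); the dashed line is the median of all sites, and the height of the points has no meaning. With PABP1212 the chaperone trends run from -0.19 at HSPD1 to 0.00 at HSPA9, which lies above 96.9% of all sites, and with PABPC1 HSPA9 lies at the low end, at -0.21, with 5.47% of all sites below it. The PABP1212 trend of HSPA9 lay below 0 once tails of exactly 0 nt were left out, and its rank among all sites was not tested there.

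Abundance was measured as RPM, the reads of a gene per 1000000 reads of its subsample, a relative amount in which less of one RNA and more of the others cannot be told apart. The fits below used counts scaled by the median ratio over sites instead, so their changes can differ from those in RPM. With PABP1212 the replacement change of HSPA5 was 1.008 log2 by total reads and 0.833 in the fit. At the main HSP90AB1 site it was 0.077 and -0.098, and at HSP90AA1 0.042 and -0.133, none of these called. All 7 genes together made up 1.76% of reads in uninduced cells of the PABP1212 library and 1.61%, 1.65%, 1.74% and 1.77% from the lowest to the highest level. In the PABPC1 library they made up 1.8% (1.7 to 1.9%) in uninduced cells and 1.41%, 1.48%, 1.43% and 1.54% (1.47 to 1.62%) over the levels, each level below uninduced cells. Within this total HSPA5 was higher in sorted cells with PABP1212, and HSPD1 and the main HSP90AB1 site were lower in sorted cells with PABPC1. Calls of HSPA5 and PPIA with PABPC1 were less stable.

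HSPA5 stood at 479 RPM (390 to 582, Poisson interval) in uninduced cells of the PABP1212 library, and at 1137, 910, 870 and 960 RPM from the lowest to the highest level. In the PABPC1 library it stood at 518 RPM (361 to 721) in uninduced cells and at 881, 968, 693 and 811 RPM over the levels. All 8 sorted values lay above both uninduced values, although the PABPC1 intervals at the lowest (669 to 1138 RPM), second-highest (580 to 821 RPM) and highest level (648 to 1003 RPM) overlapped that library's uninduced one. The replacement change, fitted by limma on log2(CPM + 1) of site counts, was 0.83 ± 0.20 log2 with PABP1212 (1.78-fold, adjusted p = 0.0183) and 0.58 ± 0.20 log2 with PABPC1 (1.5-fold, adjusted p = 0.0437). It exceeded that of 98.3% and 87.6% of the 801 sites tested, whose median changes were -0.21 with PABP1212 and -0.15 with PABPC1. HSPA5 was the only chaperone site called with PABP1212, where 12.5% of all sites were called and 2% were called higher. The PABPC1 call was lost under 6 of 15 alternatives, namely without the second-lowest or second-highest PABP1212 level or the highest PABPC1 level, with the library fitted alone, with a minimum mean of 10 reads and with voom weights (limma adjusted p of 0.0133 to 0.225 over the 15). The PABP1212 call was kept under 14 of 15 alternatives and lost with a minimum mean of 10 reads (adjusted p = 0.0776).

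The chaperonin HSPD1 stood at 1531 RPM in uninduced cells of the PABP1212 library and at 1080, 1154, 1353 and 1428 RPM from the lowest to the highest level. With PABPC1 it stood at 1702 RPM (1405 to 2043) in uninduced cells and at 896, 988, 936 and 1012 RPM (828 to 1223) over the levels. Every PABPC1 level lay below every PABP1212 level in value, but the intervals of the libraries overlapped at the lower levels. With PABP1212 and PABPC1 they were 914 to 1266 and 682 to 1156 RPM at the lowest level. At the second-lowest level they were 1036 to 1282 and 805 to 1200 RPM. Its replacement change with PABPC1 was -0.93 ± 0.16 log2 (0.524-fold, limma adjusted p = 0.00134), and 3.37% of all sites had a lower one. With PABP1212 it was -0.47 ± 0.16 log2 and did not pass (limma adjusted p = 0.0627, and 0.0325 with voom weights). The difference between the transgenes was 0.46 ± 0.23 log2 and did not pass either (limma adjusted p = 0.446).

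In all, 4 of the 8 chaperone sites were called for the PABPC1 replacement change, where 25.1% of all sites were called. Beside HSPA5, which was higher (9.86% of all sites), 3 were lower (15.2% of all sites): HSPD1, the main HSP90AB1 site (-0.51 ± 0.14 log2, limma adjusted p = 0.0176) and PPIA (-0.54 ± 0.19 log2, adjusted p = 0.046). HSP90AB1 stood at 3280, 2953, 3087 and 3493 RPM over the levels of PABPC1, against 4175 RPM in uninduced cells, and at 4433, 3894, 4358 and 4674 RPM over the levels of PABP1212, against 4191 RPM in uninduced cells. The intervals of the 2 libraries did not overlap at any sorted level, while the uninduced values were close. The difference of the replacement changes at its main site was 0.42 ± 0.20 log2 (limma adjusted p = 0.446), and the test of this difference called 0 of the 8 chaperone sites and 5 of 801 sites (0.624%). The calls of HSPD1 and the main HSP90AB1 site were kept under each of 15 alternatives, and that of PPIA under 9 of 15, being lost without the lowest, second-highest or highest PABPC1 level, when scaled by total reads (limma adjusted p = 0.0673), with a minimum mean of 10 reads and with voom weights. On simulated data the fit called more unchanged sites for PABPC1, the shallower library, than its threshold implies. There voom, which weights values by depth, called fewer. The simulated sites all had the same spread beyond counting error, so the rate of such calls in the measured data is not known. With voom weights 2 of the 8 chaperone sites and 112 of 801 sites were called for the PABPC1 replacement change, the 2 being HSPD1 (limma adjusted p = 0.00281) and the main HSP90AB1 site (adjusted p = 0.0404).

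PPIA was lowest at the lowest level of both transgenes. It stood at 4338 RPM in uninduced cells of the PABP1212 library and at 2345, 3489, 4136 and 3945 RPM from the lowest to the highest level. In the PABPC1 library it stood at 4782 RPM in uninduced cells and at 2763, 3824, 3867 and 3731 RPM over the levels. The intervals at the lowest level, 2098 to 2613 RPM with PABP1212 and 2376 to 3195 RPM with PABPC1, lay below those of all other subsamples of their library. The replacement change of PPIA was nearly the same with both transgenes, -0.53 ± 0.19 log2 with PABP1212 and -0.54 ± 0.19 log2 with PABPC1. Only the PABPC1 change passed in the main fit, and only the PABP1212 change passed with voom weights. The difference between the transgenes was 0.02 ± 0.27 log2 and did not pass.

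The abundance trend over the levels was higher with rising level at 2 of the 8 sites with PABP1212, where 22.2% of all sites were called and 19% were called higher. PPIA changed by 0.31 ± 0.08 log2 per level (limma adjusted p = 0.0139) and HSPD1 by 0.20 ± 0.06 log2 per level (adjusted p = 0.0338), against a median of 0.12 over all sites. Without the lowest PABP1212 level neither passed, and HSPD1 was also lost without the second-highest or highest PABP1212 level or the second-highest PABPC1 level and when scaled by total reads (limma adjusted p = 0.0933). With a minimum mean of 10 reads both were lost, and 8 of all 4277 sites passed. With PABPC1 no site of the 8 passed (13% of all sites did), the trend of PPIA being 0.17 ± 0.08 log2 per level (limma adjusted p = 0.133). The trend difference called 0 of 801 sites (53 at an unadjusted p under 0.05, 0 of them chaperones).

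HSPA8, HSP90AA1 and HSPA9 passed no abundance test. HSPA8 stood at 3115 RPM in uninduced cells and 3239, 2595, 2574 and 2472 RPM over the levels of PABP1212, and at 2916 RPM in uninduced cells and 2612, 2455, 2073 and 2529 RPM over the levels of PABPC1. Its replacement change was -0.38 ± 0.15 log2 with each transgene (limma adjusted p = 0.112 with PABP1212 and 0.0818 with PABPC1). HSP90AA1 stood between 3143 and 3967 RPM in all 10 subsamples. HSPA9 stood at 522 and 516 RPM at the lowest level of PABP1212 and PABPC1, against 375 and 355 RPM in uninduced cells of the same libraries, with overlapping intervals.

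**Figure D4:**
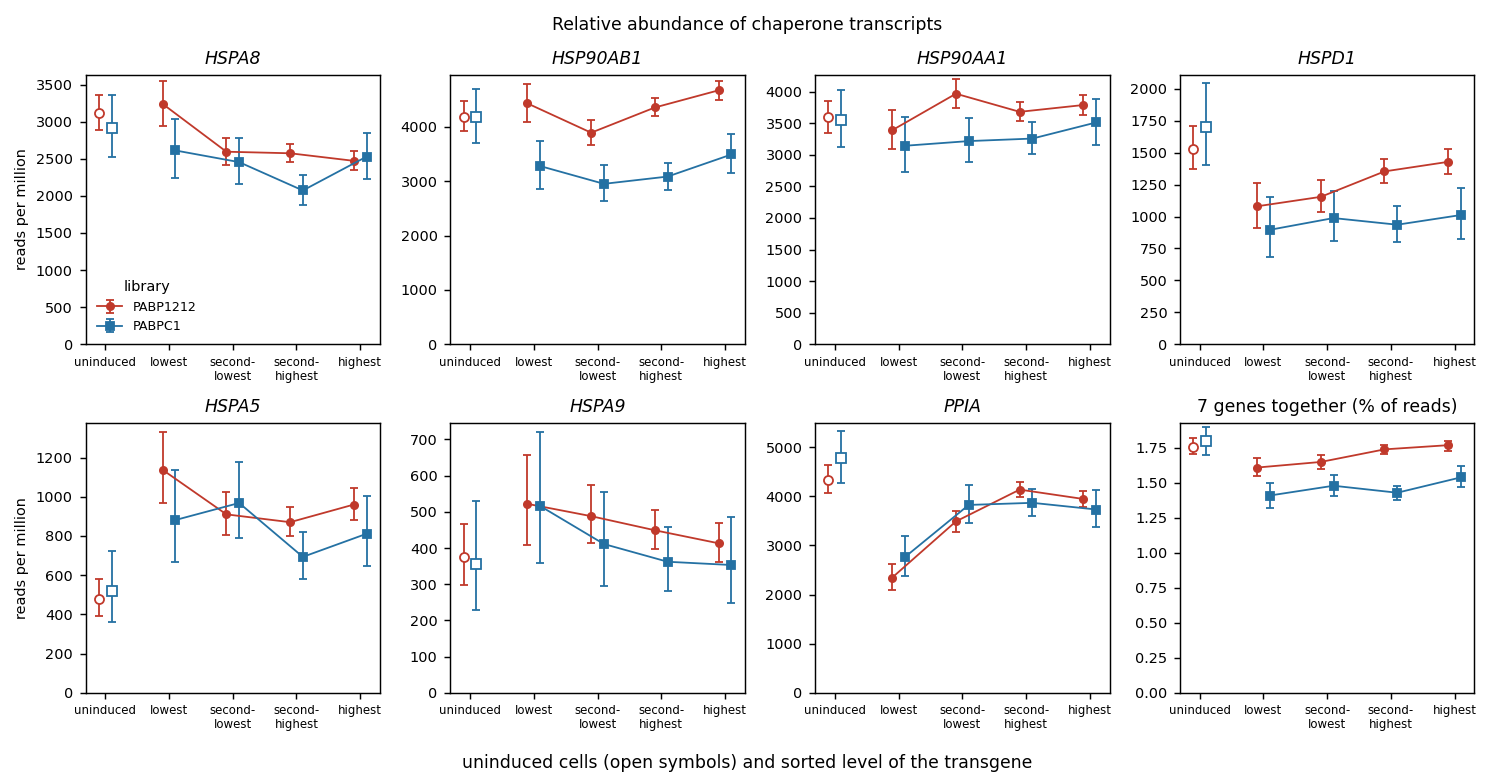
Reads of each chaperone gene in RPM, and the percent of all reads taken by the 7 genes together, in uninduced cells (open symbols) and at the 4 sorted levels of PABP1212 (red circles) and PABPC1 (blue squares); bars are 95% Poisson intervals (binomial for the percent). HSPA5 lies between 693 and 1137 RPM in sorted cells, against 479 and 518 RPM in uninduced cells.

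**Figure D5:**
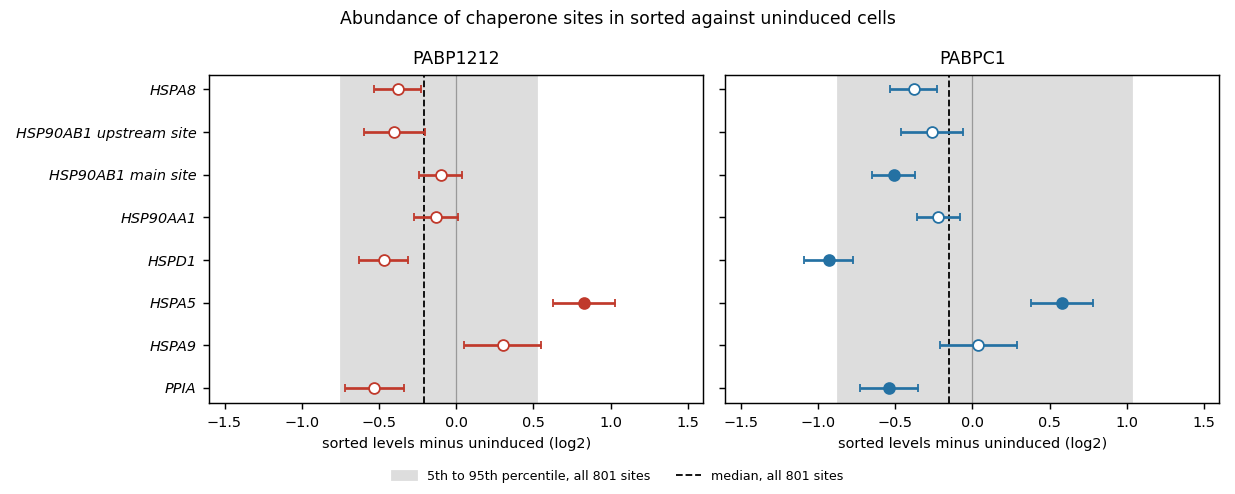
Replacement change of abundance, sorted levels minus uninduced in log2, at the 8 chaperone sites with SE (filled where the limma adjusted p was under 0.05), for PABP1212 (left) and PABPC1 (right); the grey band spans the 5th to the 95th percentile of all 801 sites and the dashed line is their median. HSPA5 lies above the band with PABP1212, at 0.83, and HSPD1 lies below it with PABPC1, at -0.93.

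HSPA5 and HSPD1, whose replacement changes of abundance had opposite signs, are each shown with a RefSeq promoter (GRCh38.p14, 250 bases before to 50 after the annotated start, minus strand, 5′ to 3′). Capitals mark matches to the endoplasmic reticulum stress element (CCAAT, 9 free bases, CCACG) in HSPA5, at chr9:125241294-125241593, and to a heat shock element (GAA, TTC and GAA with 2 free bases between them) in HSPD1, at chr2:197499791-197500090, with both strands searched.
HSPA5: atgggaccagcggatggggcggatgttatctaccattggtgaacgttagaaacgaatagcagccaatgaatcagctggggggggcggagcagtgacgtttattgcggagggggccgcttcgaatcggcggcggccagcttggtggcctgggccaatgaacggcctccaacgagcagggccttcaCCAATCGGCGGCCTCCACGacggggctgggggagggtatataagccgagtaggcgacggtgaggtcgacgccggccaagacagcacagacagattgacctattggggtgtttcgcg
HSPD1: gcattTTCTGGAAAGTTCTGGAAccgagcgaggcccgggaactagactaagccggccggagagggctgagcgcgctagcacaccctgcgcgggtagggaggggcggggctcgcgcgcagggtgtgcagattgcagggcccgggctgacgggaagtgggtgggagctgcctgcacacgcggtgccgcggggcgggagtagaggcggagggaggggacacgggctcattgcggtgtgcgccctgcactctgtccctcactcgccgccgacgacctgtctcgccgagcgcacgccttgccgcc
The first motif occurred in 27 of 35116 RefSeq promoters (0.0769%), with 1 match in HSPA5 and none in the promoters of the other 7 genes. The second occurred in 172 (0.49%), with 2 overlapping matches in this HSPD1 promoter, 2 in that of HSPA8, and matches in 1 of several promoters of HSP90AB1 and HSP90AA1. Another HSPD1 promoter, at chr2:197500225-197500524 and not shown, held no match. A match is a string of letters and was not tested as a binding site.

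Site choice within a gene was nearly constant for HSP90AB1. Its main site took 88.7% of the gene's reads in uninduced cells and 92.3%, 90.2%, 89.9% and 90% over the levels of PABP1212, and 90.1% in uninduced cells and 88.4%, 86.4%, 88.8% and 89.6% over the levels of PABPC1. For HSPA9 the main site took 59.5% (47.9 to 70.4%) in uninduced cells and 69% (62.8 to 74.8%) at the highest level of PABP1212, with overlapping intervals. The tail medians of HSPA9 at its upstream sites rested on 2 to 51 reads per subsample and ran from 38.5 to 146 nt.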

How the data were processed

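Nanopore direct RNA libraries (kit SQK-RNA004, 1 μg of total RNA, custom barcoded adapters, per the labels' protocols) were made from HCT116 cells, 1 per transgene. For every read the deposited tables give, per the file headers, a subsample name, a poly(A) site and a tail length in nt as the authors measured it, and the deposited barcode table ties each subsample to its transgene and gate. Per the submitters' processing notes, the authors used Bowtie2, minimap2 and hg38, in roles that are not stated. Which programs called bases, tails and barcodes is not given in the sources used here. Site positions run past the last annotated end of a chromosome in hg38, so they are on another build, no position was converted, and other chaperones were not analysed here.

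The 8 genes, intervals, lists and tests were chosen with earlier results of these data known. All 8 genes are named. Tails of exactly 0 nt were kept. A site entered the tail fits when each of the 10 subsamples held at least 10 reads of it, and reads served as weights. Reads were counted per site here, scaled by the median ratio over 5662 sites and taken as log2(CPM + 1) for sites with a mean of at least 50 reads. limma 3.58.1 in R 4.3.3 was fitted across all sites with library, replacement within library and level rank within library as terms (4 residual degrees of freedom, the lone uninduced subsamples assumed to vary like the others), with Benjamini-Hochberg adjustment over all sites. The fits were tested on simulated data, where the abundance fit called more unchanged sites for PABPC1 than its threshold implies and voom weights called fewer. For abundance all simulated sites had the same spread beyond counting error, which measured sites need not share. Other steps used SciPy 1.17.1, pandas 2.3.3, NumPy 2.4.6 and Matplotlib 3.10.9 under Python 3.11.15. Alternatives were other tail minimums, scales, weights, filters and scalings, each library alone, and each subsample left out.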

Additional observations from a re-analysis of the deposited data

Results flagged for a closer look

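Some reads carry a name absent from the barcode table. They made up 5.63% of the PABP1212 library and 2.86% of the PABPC1 library and entered no comparison. Among their chaperone reads, 26.6% (24.6 to 28.6%, exact Clopper-Pearson interval, 509 of 1915) had a tail of exactly 0 nt in the PABP1212 library, against 0.511% in its uninduced cells. In the PABPC1 library the share was 8.04% (4.83 to 12.4%, 18 of 224), against 0.164% in its uninduced cells. Both were taken up because they lie above the level in the uninduced cells. Listed subsamples also differed in this share, by gene and level. For HSP90AB1 it was 0.452% in uninduced cells and 3.71%, 0.593%, 2.98% and 1.33% over the levels of PABP1212. For HSPA9 it was 2.53% in uninduced cells and 4.11%, 2.03%, 1.77% and 0% over the same levels. Over all reads under that name, chaperone reads included, the share was 23.6% (23.3 to 23.8%) in the PABP1212 library and 9.69% (9.23 to 10.2%) in the PABPC1 library. In the PABP1212 library the chaperone interval lay above that of all reads, and in the PABPC1 library the 2 overlapped.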

How the results depend on the processing

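Counts below are of chaperone sites past the limma threshold, with counts over all sites tested in brackets where given. The PABP1212 tail trend, 5 of 8 (139 of all 914), gave 1 with no weights (231 of 914) and 1 with the library fitted alone (85 of 914). It gave 3 of 9 with a minimum of 5 reads (135 of 1943) and 0 with subsample medians subtracted (10 of all 914 sites passed there). Without tails of exactly 0 it gave 6, HSP90AA1 being the added one, and 433 of 908 sites passed there. Leaving out 1 subsample gave 0 to 7. Subtracting subsample medians, which takes the shift shared by all sites from each trend, changed the sign at HSPA8, HSP90AB1 (main site) and PPIA, to 0.035, 0.044 and 0.023 log2 per level, none of them told apart from 0 (limma adjusted p = 0.449, 0.275 and 0.738). The PABP1212 tail replacement change, 0, gave 0 to 1 and the tail trend difference, 0, gave 0 to 2 when 1 subsample was left out, the higher number in each case without the highest PABP1212 level. The PABP1212 abundance trend, 2 (178 of all 801), gave 1 when scaled by total reads (114 of 801) and 0 with a mean of 10 reads (8 of 4277). It gave 0 to 3 with 1 subsample left out. The PABP1212 abundance replacement change, 1 (100 of all 801), gave 3 with the library alone (183 of 801) and 0 with a mean of 10 reads (41 of 4277). It gave 3 with a mean of 100 reads (128 of 356), 3 with voom weights (168 of 801) and 1 to 3 with 1 subsample left out. The PABPC1 abundance replacement change, 4 (201 of all 801), gave 2 with a mean of 10 reads (551 of 4277) and 2 with voom weights (112 of 801). It gave 2 to 4 with 1 subsample left out, the lowest without the highest PABPC1 level. For these the cause was not tested. Means in place of medians moved 22 of 70 gene medians outside their interval, and the main site alone or tails of 0 left out moved none of the 70. For the 4 results with a count above 0, 15 of 27 counts under settings that left out no subsample stayed within 1.5 times. Scaling by total reads changed the calls over all 801 sites to 24 higher and 26 lower, against 16 and 84, for the PABP1212 replacement change, to 114 and 105, against 79 and 122, for PABPC1, and to 84 and 30, against 152 and 26, for the PABP1212 trend (55 and 31, against 80 and 24, for PABPC1). No paired analysis was possible because each library holds each level once and no label pairs subsamples. Low read numbers limit HSPA9 and the upstream HSP90AB1 site most.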
